A study of Mus musculus with 6 samples.

Results

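Hes and Hey genes encode basic helix-loop-helix repressors that are the best known direct outputs of Notch signalling. They were examined here together with Nrarp and Dtx1, which act back on the pathway, in mLPS1, a mouse dedifferentiated liposarcoma cell line. The 9 genes, Heyl, Hey1, Hey2, Hes1, Hes2, Hes6, Hes7, Nrarp and Dtx1, were taken by symbol from the authors' deposited table of 14472 genes. All 9 were present, each on a single row, and all 9 had an adjusted p. One group was mLPS1 wild type (genotype WT, 3 libraries) and the other mLPS1 NICD Knockout (genotype NICD Knockout, 3 libraries), where NICD stands for the Notch intracellular domain. Both groups are the same tumour line with no treatment named, and the labels do not say how the knockout was made, whether it is 1 clone, or which of the Notch receptors it concerns. The title names Notch over-expression while the labels name a knockout, so directions below are those of the name the authors gave the table, NICD knockout over wild type. The labels do not tie the libraries to separate cultures, so each error measures how these libraries differ and may be technical.

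A Notch receptor that meets its ligand on a neighbouring cell is cut, and its intracellular domain moves to the nucleus, where it joins the DNA-binding protein Rbpj and switches genes on. Hes and Hey proteins made in response bind DNA as dimers and recruit Groucho corepressors or other repressor complexes, so that an activating signal ends in the silencing of other genes. In vessel walls, Heyl, Hey1 and Hey2 act downstream of Notch in mural and endothelial cells. Nrarp binds the Notch intracellular domain complex and promotes its loss, and Dtx1 is a Deltex ubiquitin ligase that binds the intracellular part of Notch.

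In the knockout, all 3 Hey genes, Hes1, Hes6, Nrarp and Dtx1 fell, and Hes2 and Hes7 did not pass the test. In the authors' deposited table, 7 of the 9 genes were called lower at an adjusted p under 0.05 (DESeq2 Wald test, Benjamini-Hochberg adjustment over all genes) and 0 were called higher, against 25.1% of all 14470 tested genes called lower and 25.4% called higher. At least 2-fold lower and called were 6 of the 9, against 9.74% of all genes. At least 64-fold lower were 4 of the 9, Heyl, Hey2, Hey1 and Nrarp, against 0.781% of all genes, again by the authors' deposited table. This 64-fold cut was not planned beforehand. The 9 had a median log2 change of -2.79, beside 0.02 over all tested genes, by the authors' deposited table. The 2 genes that were not called, Hes2 and Hes7, had mean normalised counts of 12.7 and 4.94 in the authors' deposited table, while the other 7 had means of at least 100, a range in which 30.2% of 10479 genes were called lower. These genes were picked out with earlier results for these libraries known, so the counts describe them and do not stand as an independent test.

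**Figure D1:**
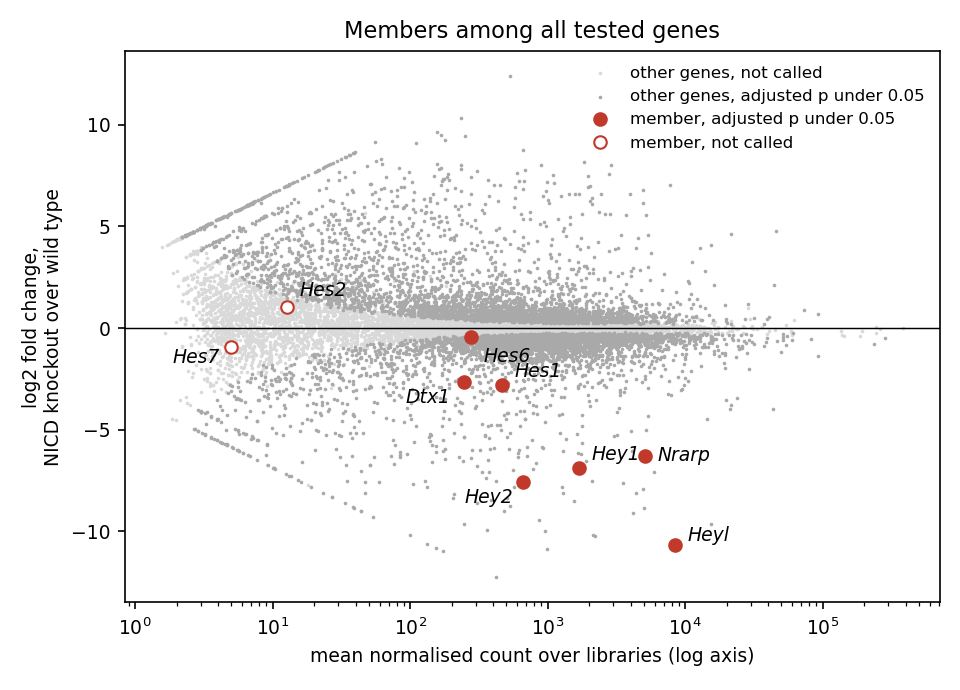
Each point is a gene, placed by its mean normalised count over the libraries (horizontal, log axis) and its log2 fold change in the knockout over wild type (vertical), with the 9 genes in red, filled where called. Heyl lies at -10.65 with a mean of 8353, below nearly all other genes of its level, and Hes2 and Hes7 lie in the cloud of weakly expressed genes.

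Promoter sequence is shown for Hey2, Nrarp and Hes7, because Hey2 and Nrarp fell steeply and Hes7, which was not called, has the same Rbpj letters as Hey2. RefSeq promoter entries (build GRCm38.p6, 250 bases before to 50 after the gene start) were matched by symbol for 5 of the 9 genes. No entry was matched for Heyl, Hey1, Hes1 and Hes2. Sequences run 5′ to 3′ on the strand of the gene over the 250 bases before its start, and position -1 is the last base before the start. In Hey2 and Hes7 the capitals mark the core TGGGAA of the Rbpj site or its reverse complement, and in Nrarp the E-box CACGTG, to which Hes and Hey dimers can bind.
Hey2, chr10:30842784-30843033, minus strand: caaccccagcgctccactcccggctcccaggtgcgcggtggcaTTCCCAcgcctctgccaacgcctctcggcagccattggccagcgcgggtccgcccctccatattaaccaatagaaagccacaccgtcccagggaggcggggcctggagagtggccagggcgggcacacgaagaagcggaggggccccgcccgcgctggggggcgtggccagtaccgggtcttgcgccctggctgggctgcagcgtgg
Hes7, chr11:69120203-69120452, plus strand: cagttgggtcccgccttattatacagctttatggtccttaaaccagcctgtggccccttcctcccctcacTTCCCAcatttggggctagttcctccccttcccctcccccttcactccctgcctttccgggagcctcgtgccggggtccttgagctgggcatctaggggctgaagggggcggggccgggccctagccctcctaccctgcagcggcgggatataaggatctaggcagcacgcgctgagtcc
Nrarp, chr2:25180508-25180757, plus strand: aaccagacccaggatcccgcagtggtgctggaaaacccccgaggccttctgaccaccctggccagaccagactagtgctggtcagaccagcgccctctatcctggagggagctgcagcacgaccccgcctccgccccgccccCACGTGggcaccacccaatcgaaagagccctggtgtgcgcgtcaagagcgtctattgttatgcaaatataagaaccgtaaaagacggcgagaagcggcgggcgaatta
A second core in Hey2 spans the gene start and is shown in its own window, chr10:30842770-30842797, minus strand: gggctgcagcgTGGGAAagaacctccag

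The Hey2 promoter held the core TGGGAA at 2 places, beginning at position -207 on the opposite strand and at position -3 on the strand of the gene. Both places also held the longer form GTGGGAA, which contains TGGGAA. Hes7 held 1 copy of each, at position -180 on the opposite strand. Over both strands, 25.6% of the 32851 RefSeq promoters of this length held TGGGAA and 6.38% held GTGGGAA. No TGGGAA was found in these windows of Nrarp, Dtx1 or either of the 2 Hes6 entries. Nrarp held 1 CACGTG, at position -108, as did 7.15% of all promoters. The N-box CACNAG, the other Hes binding sequence searched, was found in Nrarp, Dtx1, Hes7 and 1 of the Hes6 entries, and in 42.5% of all promoters. A head-to-head pair of exact TGGGAA with 15 to 17 bases between was found in 6 of the 32851 promoters and in none of the entries of these genes. Pairs in which a core differs from TGGGAA were not searched. Among 10850 tested genes with an entry, TGGGAA was present in 27.9% of those called lower, 26.9% of those called higher and 27.5% of those not called. A letter match in so short a window is a description and not a binding site.

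The Hey genes had the steepest falls of the 9. Heyl, the Hey-like repressor of vascular smooth muscle, had a log2 change of -10.65 with a standard error of 1.11 in the authors' deposited table (95% Wald interval -12.84 to -8.47, DESeq2 adjusted p = 2.05e-20). It had the fifth lowest log2 fold change of the 14470 tested genes. Hey2, known for its part in arterial and cardiac development, had a log2 change of -7.59 and a standard error of 0.35 in the authors' deposited table (interval -8.27 to -6.90, DESeq2 adjusted p = 3.47e-103). Hey1, its close relative, had a log2 change of -6.90 with a standard error of 0.27 in the authors' deposited table (interval -7.43 to -6.37, DESeq2 adjusted p = 3.98e-141). Values of single libraries were not analysed here, so levels are given per group, fitted from each gene's mean and fold change for 3 libraries in each. On that scale of normalised counts per library, Heyl was fitted at 16696 in wild type and 10.4 in the knockout, Hey1 at 3325 and 27.8, and Hey2 at 1311 and 6.82. In the knockout, all 3 Hey genes were fitted above the floor of 1 normalised count per library. The knockout level was 0.0621% of the wild type level for Heyl (interval 0.0137% to 0.282%), 0.521% for Hey2 (0.325% to 0.835%) and 0.835% for Hey1 (0.578% to 1.21%).

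The Hes genes split into 2 that fell and 2 whose intervals held 0. Hes1, the founding Notch-driven repressor that also oscillates in progenitor cells, had a log2 change of -2.79 (standard error 0.22, interval -3.22 to -2.36, DESeq2 adjusted p = 1.39e-35) in the authors' deposited table. Its fitted level was 812.8 in wild type and 117.2 in the knockout, so 14.4% of the level was left (interval 10.7% to 19.4%). Hes6, which is known to oppose Hes1 and to be induced in other ways than by Notch, had a log2 change of -0.42 (standard error 0.16, interval -0.72 to -0.11, DESeq2 adjusted p = 0.0174) in the authors' deposited table. Hes6 was fitted at 317.7 and 238.3, a fall to 75.0% of the wild type level (interval 60.7% to 92.6%). Hes7, the repressor of the segmentation clock in the embryo, had a log2 change of -0.92 and an interval of -2.97 to 1.14 (DESeq2 adjusted p = 0.489) in the authors' deposited table. Hes2, about whose role less is known, had a log2 change of 1.05 and an interval of -0.26 to 2.37 (DESeq2 adjusted p = 0.184) in the authors' deposited table. With fitted levels of 6.46 and 3.42 for Hes7 and 8.24 and 17.1 for Hes2, their intervals span changes of over 2-fold in at least 1 direction. Counting at these levels made up 27.7% of the squared standard error for Hes2 and 28.3% for Hes7. In the annotation the span of a gene on the opposite strand overlaps Hes7 (9130213A22Rik) and that of another overlaps Nrarp (Gm38287). Whether their exons overlap was not examined, and whether the counting used strand is not given, so how far reads are shared is unknown.

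Nrarp and Dtx1 act on Notch itself. Nrarp had a log2 change of -6.31 with a standard error of 0.18 (interval -6.67 to -5.95) in the authors' deposited table, and its adjusted p of 1.38e-259 (DESeq2) rests on the eighth smallest p of the table. It was fitted at 10040 in wild type and 126.6 in the knockout, with 1.26% of the level left (interval 0.984% to 1.61%). Dtx1 had a log2 change of -2.65 and a standard error of 0.98 (interval -4.57 to -0.73, DESeq2 adjusted p = 0.0157) in the authors' deposited table. Its fitted levels were 422.6 and 67.2, and the share left, 15.9%, had an interval of 4.20% to 60.1%. The Dtx1 estimate lies near that of Hes1, but its interval is wider.

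**Figure D2:**
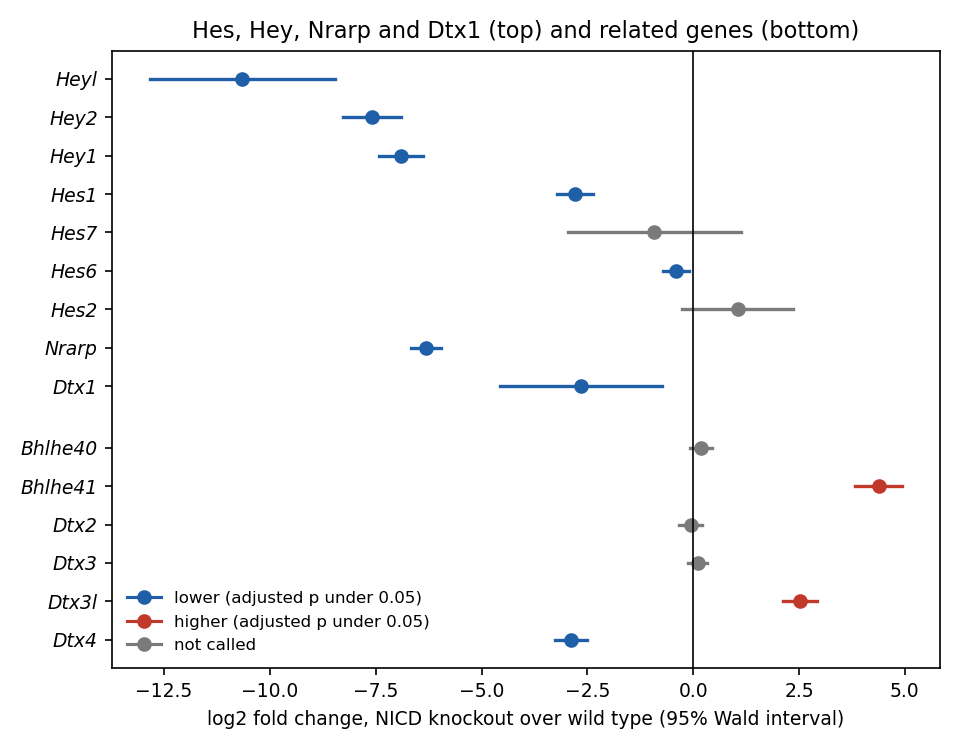
Log2 fold change in the knockout over wild type (horizontal) with 95% Wald intervals for the 9 genes (top) and for related bHLH and Deltex genes (bottom), coloured by call. The intervals of Heyl, Hey2, Hey1 and Nrarp end at or below -5.95, those of Hes2 and Hes7 hold 0, and Bhlhe41 and Dtx3l lie to the right of 0.

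Ordered by log2 fold change, the genes ran Heyl, Hey2, Hey1, Nrarp, Hes1, Dtx1, Hes7, Hes6 and Hes2, and of the 8 steps between neighbours in that order 5 had a 95% interval of the difference that held 0. These intervals combine the 2 standard errors as if the estimates were independent, although both come from the same libraries. Heyl lay below Hey2 by a log2 difference of -3.07 (interval -5.35 to -0.78). Hey2 and Hey1 differed by -0.68 (interval -1.54 to 0.18), and Hey1 and Nrarp by -0.60 (interval -1.23 to 0.04), so their order is not resolved. A wide step followed between Nrarp and Hes1, with a difference of -3.52 (interval -4.08 to -2.96). Hes1 and Dtx1 differed by -0.14 (interval -2.11 to 1.83), an interval too wide to call them alike. The difference Hes1 minus Hes6 was -2.38 (interval -2.91 to -1.85). Over all 36 pairs, 29 intervals did not hold 0.

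Levels were also compared between the 7 repressor genes after division by the length of their exons (GENCODE M21 annotation), because a longer transcript collects more reads. In wild type Heyl led at 3265 fitted normalised counts per kb of exon, before Hey1 at 1018 and Hes1 at 399.0. Hey2 followed at 285.3 and Hes6 at 175.7, with Hes7 at 3.57 and Hes2 at 3.12 far below. In the knockout Hes6 led at 131.8 per kb, before Hes1 at 57.6. The other 5 lay between 8.50 (Hey1) and 1.49 (Hey2), with Heyl at 2.03. Among these 7 the leading transcript was thus Heyl in wild type and Hes6, the gene with the smallest called change, in the knockout. The 3 Hey genes held 88.7% of the summed level per kb of the 7 in wild type and 5.73% in the knockout. Heyl alone held 63.4% of that sum in wild type, and Hes6 held 62.8% in the knockout. The level behind the Heyl share had an approximate 95% interval of 1153 to 9247 per kb. That behind the Hes6 share had one of 113.3 to 153.3, so the Heyl share is the less certain. The sum itself was 5151 per kb in wild type and 209.7 in the knockout. Approximate 95% intervals were taken from the spread that each standard error implies, at this exon length only. They separated each neighbour in the wild type order except Hes7 and Hes2 (ratio 1.14, interval 0.353 to 3.70). By the longest annotated transcript, wild type levels per kb were 3680 for Heyl, 1372 for Hey1, 553.7 for Hes1 and 513.9 for Hey2. No intervals were computed at that length, so the steps from Heyl to Hey1 and from Hes1 to Hey2 hang on the length used. The step from Heyl to Hey1 in wild type had a ratio of 3.21 with an interval of 1.11 to 9.27. In the knockout, Hes6 was above Hes1 by a ratio of 2.29 (interval 1.75 to 2.99) and Hes1 above Hey1 by 6.77 (interval 4.66 to 9.84), and the 4 steps below Hey1 were not resolved. Nrarp was fitted at 3889 per kb in wild type, at the 98.3 percentile of tested genes, and at 49.0 in the knockout, at the 38.1 percentile. Heyl moved from the 97.9 percentile to the 7.31 percentile on the same scale.

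**Figure D3:**
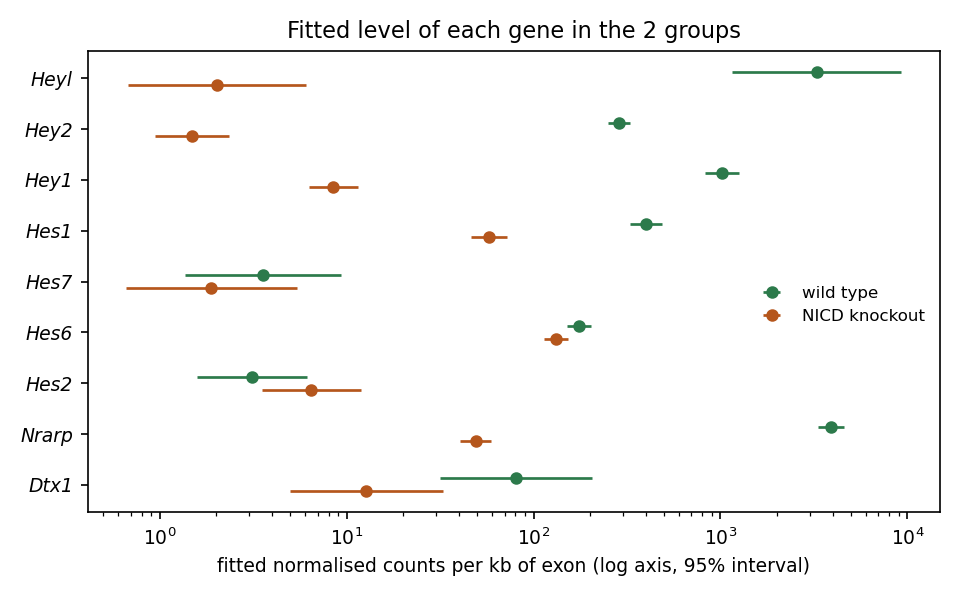
Fitted normalised counts per kb of exon (horizontal, log axis) in wild type (green) and in the knockout (orange) for the 9 genes, with approximate 95% intervals. The groups stand far apart for Heyl, Hey1, Hey2 and Nrarp, lie close for Hes6 (175.7 and 131.8). The intervals of the groups overlap for Hes2 and Hes7 and, at their ends, for Hes6 and Dtx1.

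The precision of the estimates differed between the 9 genes. The coefficient of variation (CV) between libraries of a group that would give each standard error was computed at the fitted levels and set beside the 400 tested genes nearest in mean. For Heyl the implied CV was 92.0%, against 10.7% at the median of genes of like mean, and all 400 of them had a smaller value. Of 4406 genes with a mean of at least 1000, 3 had a larger implied spread than Heyl. For Dtx1 the implied CV was 82.6%, against 15.7% at the median of its like, and 99.5% of those genes had a smaller one. Under this model the libraries of a group differed more in Heyl and Dtx1 than in most genes of their level, and which libraries these were was not analysed here. Hey1 at 18.6%, Hes1 at 17.3%, Nrarp at 14.1%, Hes6 at 11.7% and Hey2 at 11.6% had implied CVs under 20%. Of the genes of like mean, 95.8% had a smaller implied spread than Hey1, but only 1.25% a smaller one than Hes6, for which the median was 15.4%. At the median spread of genes of like mean, the standard error of Heyl would be 0.29 and that of Dtx1 0.22 on the log2 scale, in place of 1.11 and 0.98. That of Hes6 would be 0.194 in place of 0.155, and its call would be lost (DESeq2 fold change, recomputed Wald test, adjusted p = 0.0628, an alternative chosen after seeing the data). For Hey2, 84.5% of the squared standard error came from counting at its low knockout level, compared with 5.39% for Heyl and 1.25% for Dtx1.

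**Figure D4:**
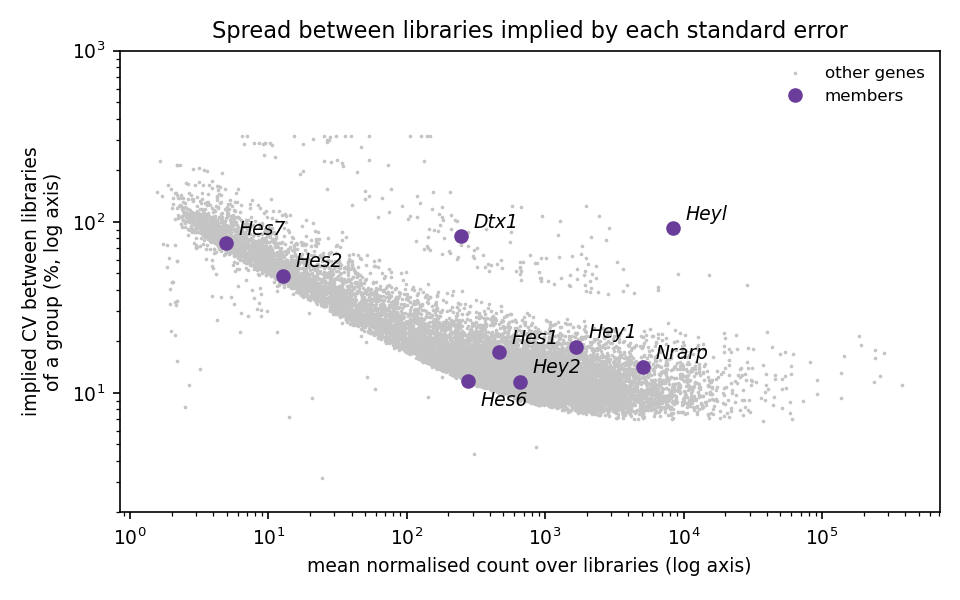
CV between libraries of a group implied by each standard error (vertical, %, log axis) against the mean normalised count (horizontal, log axis) for the 14236 tested genes with an implied spread above 0. Heyl (92.0%) and Dtx1 (82.6%) stand above the band of genes of their level, Hey1 (18.6%) lies near its upper edge and Hes6 (11.7%) at its lower edge.

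Each gene was set beside the 10 nearest protein-coding genes on each side with a mean of at least 100 (14 in all for Hey1, which is near the end of the tested genes of its chromosome). For the 4 genes with the steepest falls the neighbours had median log2 fold changes of 0.15 (Heyl, chromosome 4), 0.09 (Hey2, chromosome 10), 0.47 (Hey1, chromosome 3) and 0.02 (Nrarp, chromosome 2). No neighbour had a lower value than the gene itself for Heyl, Hey2, Hey1, Nrarp or Dtx1. Around Hes1 on chromosome 16 the median was -0.18 and 2 of 20 neighbours had lower values. Hes6 on chromosome 1 lay among genes with a median of -0.32, 11 of 20 of them called lower and 4 higher, and 9 had lower values than Hes6. After the median of its neighbours was subtracted, Hes6 was at -0.094 and did not pass (DESeq2 estimates, recomputed Wald test, adjusted p = 0.650, range 0.0158 to 1 over 11 alternatives). With 5 or 20 neighbours on each side, chosen after seeing the data, Hes6 was at -0.28 and -0.32 after subtraction and did not pass either (DESeq2 estimates, recomputed Wald test, adjusted p = 0.132 and 0.0763). The part of the neighbourhood in the change of Hes6 was not tested further. Next to Dtx1 on chromosome 5, whose neighbours had a median of -0.10, stood the antiviral genes Oas2, Oas3, Oas1g and Oas1a, named after their values were seen, which the authors' deposited table put between 6.60 and 7.57. Reads of the closely similar Oas1 copies may be divided among them, which makes the values of Oas1g and Oas1a uncertain.

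**Figure D5:**
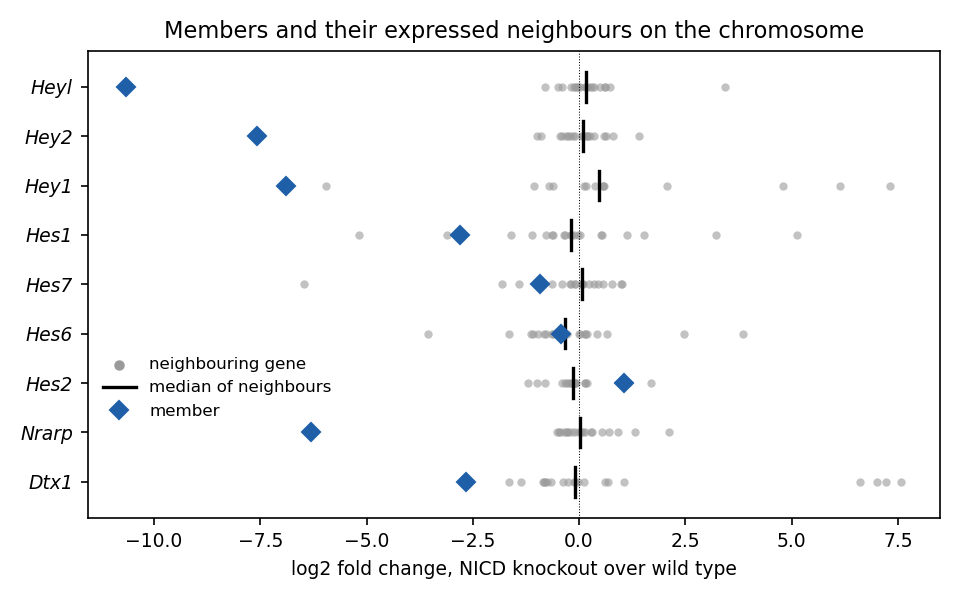
Log2 fold change (horizontal) of each of the 9 genes (blue diamond), of its expressed neighbours (grey points) and the median of the neighbours (black bar). Heyl, Hey2, Hey1 and Nrarp lie below every neighbour, and Hes6, at -0.42, lies near the median of its 20 neighbours, -0.32.

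Of the other bHLH repressors of this structural class, 2 were tested and 0 were called lower. Bhlhe40, a clock and stress-responsive repressor, had a log2 change of 0.18 (interval -0.07 to 0.44, DESeq2 adjusted p = 0.236) in the authors' deposited table. Its fitted level per kb was 915 in wild type and 1039.5 in the knockout, where it was above that of Hes6. Bhlhe41, its relative, rose with a log2 change of 4.38 (interval 3.82 to 4.94, DESeq2 adjusted p = 5.16e-52) in the authors' deposited table. It was fitted at 17.8 in wild type and 370.8 in the knockout, and per kb its knockout level was 55.2, beside 57.6 for Hes1. Genes around Bhlhe41 on chromosome 6 stood at 0.71 in the median. Hes3, Hes5 and Helt were not among the rows used here. Of the 4 other Deltex genes, Dtx4 fell, Dtx3l rose, and Dtx2 and Dtx3 did not pass. These calls stand beside 25.1% of all tested genes called lower and 25.4% called higher. Dtx4 had a log2 change of -2.89 (standard error 0.19) in the authors' deposited table, with fitted levels of 3699 and 498.8, a narrower error than that of Dtx1. Dtx3l, a partner of the interferon-linked enzyme Parp9, had a log2 change of 2.52 (standard error 0.21) in the authors' deposited table. Dtx2 and Dtx3 had intervals of -0.32 to 0.20 and -0.11 to 0.33, computed from the authors' deposited table.

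Upstream of the 9 genes, 3 of 4 receptors were called lower (Notch1 at -1.78, Notch3 at -4.99 and Notch4 at -1.28) and Notch2, at -0.05, was not called, by log2 changes of the authors' deposited table. The labels do not say which receptor the knockout concerns, so these values do not check them. Of 3 tested ligands, Jag1 fell and 2 did not pass, Dll1 and Jag2, at 0.78 and -0.28 in the authors' deposited table. Genes of receptor cleavage and sugar modification had 4 of 15 lower and 4 higher, with a median of -0.01. In the nuclear complex 5 of 8 were lower and 1, the DNA-binding Rbpj, was higher at 1.37 in the authors' deposited table. Among the lower members, Maml3, a coactivator that binds the complex, was at -1.24 and Snw1 at -0.84, where the neighbours of Snw1 had a median of -0.84. Rbpj corepressors had 8 of 12 lower and 1 higher, with Bend6 at -1.87 in the authors' deposited table. Genes of the Groucho family had 1 of 6 lower and 2 higher, with Tle5 at 0.62, Tle2 at 0.78 and Tle3 at -0.32 in the authors' deposited table. Inhibitors and turnover factors had 3 of 8 lower and 3 higher, and Numb was at 1.43 in the authors' deposited table. Other genes reported as direct Notch targets had 7 of 14 lower and 3 higher, with a median of -0.75. Those with the smallest p were Acta2 at -3.96, Pdgfrb at -3.02 and Efnb2, an arterial ephrin ligand, at -2.51 in the authors' deposited table. The counts of these lists stand beside 25.1% lower and 25.4% higher over all genes.

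Markers of pericytes and smooth muscle, cells in which Heyl is a known Notch output, moved with the Hey genes. Of 10, 9 fell and 0 rose, beside 25.1% of all tested genes called lower and 25.4% called higher, the shares for the marker counts that follow too. The summed fitted level was 127922 in wild type and 9140 in the knockout, of which Acta2 made up 81441 and 5224. Acta2 is also among the reported direct Notch targets above, so these lists are not separate. Cnn1 did not pass. Their part in the fall of the Hey genes was not tested, and in bulk RNA fewer cells of a type and less RNA per cell cannot be told apart. Among 8 endothelial markers, 7 were tested, 2 fell (Kdr and Egfl7) and 0 rose, with summed fitted levels of 274.8 and 195.3. Pecam1 and Cdh5 were fitted at 6.69 and 21.7 in wild type and 15.2 and 21.9 in the knockout. Macrophage markers had 2 of 5 tested higher, Cd68 and Lyz2. Cd68, a lysosomal protein, was fitted at 179.0 in wild type and 2238 in the knockout, and Lyz2 at 88.1 and 157.1. Ptprc, the pan-leukocyte marker CD45, was fitted at 3.74 and 13.7 and Csf1r at 20.8 and 22.5, and neither passed. T and B cell and epithelial markers had summed fitted levels of at most 105.2 and 79.5 in either group. Of the 6 tested markers for the labelled cell type, 2 fell (Col1a1 and Vim), 3 rose (Mdm2, Pdgfra and Col1a2) and Cdk4 did not pass. Vim, Cdk4 and Mdm2 were fitted at 2908 or more in both groups. Col1a1 was fitted at 30866 in wild type and 8050 in the knockout, Pdgfra at 33.6 and 172.5, and Col1a2 at 15.5 and 37.4. Thy1 was not among the rows used here. Of 6 adipocyte markers only Pparg and Fabp4 were tested. Fabp4 rose, fitted at 4.37 in wild type and 307.4 in the knockout. Pparg had a log2 change of -1.72, fitted at 14.4 and 4.39, and did not pass.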

How the data were processed

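RNA of 3 wild type and 3 NICD knockout libraries was sequenced. Salmon, DESeq2 and build mm39 are named in the submitters' processing notes, with versions, settings and filters not stated. The deposited table gives, per the file headers, 1 row per gene: a mean of size-factor-normalised counts (a signal), a log2 fold change and standard error, the Wald statistic (a score), and the Wald p-value with its adjusted p-value. The depth per library is unknown. The planned edgeR test was not run, as no counts of single libraries were used, and the calls are the authors'. Recomputing statistic, p and adjustment gave differences of at most 1.56e-13. Of 14472 rows, 2 have no p.

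From the deposited values, 95% intervals (1.96 standard errors), fitted group levels and the implied dispersion were computed, assuming 3 libraries per group, equal size factors and 1 dispersion for both groups. The implied dispersion ended at 10.0, with 12 genes within 2% of 10 and 0 above, as a fixed ceiling in the fit would leave. Gene order and exon length came from GENCODE M21 (GRCm38), matched by Ensembl identifier for 14456 rows (99.9%), so coordinates are printed only for RefSeq promoters. Calls and implied spread were tested on simulated data. The simulation took the deposited standard errors and the same count model as given, so it checks the calculation and not the model. Alternatives were filters at means of 10 and 100, Bonferroni adjustment, a threshold of 0.01, a test of more than 2-fold, centring, neighbour subtraction, the spread of genes of like mean and a floor of 1. The 9 genes and the lists were chosen with earlier results of these data known. Named genes are the 9, all tested members of 2 related families, the 3 with the smallest p of other lists, some of them not reported here, and others where stated. Python 3.11.15, numpy 2.4.6, pandas 2.3.3, scipy 1.17.1 and matplotlib 3.10.9 were used.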

Additional observations from a re-analysis of the deposited data

How the results depend on the processing

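Heyl, Hey1, Hey2, Hes1 and Nrarp kept their direction and their call under all 11 alternatives run for each, and Hes2 and Hes7 stayed without a call in the 10 and 9 that kept them. Only centring and neighbour subtraction moved the estimates. The other alternatives left them as they were, so a kept direction is no check there. The log2 fold change ranged from -10.98 to -10.60 for Heyl, -7.37 to -6.85 for Hey1, -7.76 to -7.54 for Hey2, -2.79 to -2.57 for Hes1 and -6.41 to -6.26 for Nrarp. Hes6 (-0.42) and Dtx1 (-2.65) lost their call at a threshold of 0.01, with Bonferroni adjustment and in the test of more than 2-fold, where the 2 estimates stay as they are. Hes6 also lost it with neighbours subtracted, at -0.094 with 10 on each side and, chosen after seeing the data, -0.28 with 5 and -0.32 with 20; the cause was not tested. It lost the call too, at -0.42, with the spread of genes of like mean. Over all genes, 7303 calls became 3175 with Bonferroni adjustment and 1606 in the test of more than 2-fold. By the length of the longest annotated transcript, also chosen after seeing the data, Heyl held 58.1% of the repressor level per kb in wild type and Hes6 59.1% in the knockout. No paired analysis was possible because the table holds 1 value per gene. The p numbers of the titles are 35, 37 and 40 in wild type and 34, 36 and 39 in the knockout, each wild type number next above a knockout number, and the labels do not say whether this marks pairs. Leaving out single libraries, edgeR and other size factors were not run for the same lack of library values.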

Other observations

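Of 12 genes that Hes or Hey proteins are reported to repress, 5 were tested, with 1 higher, 1 lower and a median log2 fold change of 0.09. These counts are near the shares over all genes, 25.4% higher and 25.1% lower. Gadd45g, a stress-induced growth regulator, rose 2.30-fold (DESeq2 adjusted p = 3.91e-10) in the authors' deposited table. It was fitted at 640.2 in wild type and 1474 in the knockout. Cdkn1b, the cell cycle inhibitor p27, fell with a log2 change of -0.71 (DESeq2 adjusted p = 7.74e-06) in the authors' deposited table. Genes around Cdkn1b on chromosome 6 stood at -0.68 in the median. Cdkn1c, Dll1 and Lfng did not pass, and the authors' deposited table gave Dll1 and Lfng means of 14.4 and 47.2. Others of the list, such as Dlk1 and Gata4, were not among the rows used here.

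Id proteins lack a DNA-binding region and bind other helix-loop-helix proteins. Of the 4 Id genes, Id1 and Id2 rose, Id4 fell and Id3 did not pass. Over all tested genes, 25.4% were called higher and 25.1% lower. By the authors' deposited table, Id2 stood at a log2 change of 1.91 and Id1 at 0.65. Id4 was at -4.14 in the authors' deposited table, with fitted levels of 38.3 in wild type and 2.17 in the knockout. Id3 had the highest fitted level per kb of the 4, at 975.5 in wild type and 898.5 in the knockout.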
